A study of Mus musculus with 30 samples.

Results

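Gene expression in retinal ganglion cells of C57BL/6 mice on day 4 after optic nerve crush was set against that on day 3. The comparison used 5 of the 30 samples of the series, namely RNA replicates 2 and 3 of day 4 and RNA replicates 1, 2 and 3 of day 3, as the labels name them. The series holds 15 RNA samples from cells without crush (day 0) and on days 1 to 4 after it. It also holds 15 chromatin accessibility samples of days 0, 1 and 3. Of the RNA samples, 13 had counts, and day 4 replicate 1 was not analysed here. Both groups carried the crush, and they differed only in the day as far as the labels say. The labels give neither the age nor the sex of the mice, and they do not say whether replicates came from separate animals, so p-values measure the spread between libraries, which may be technical.

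Ganglion cells are the output neurons of the retina, and their axons form the optic nerve. A crush severs these axons, and in adult mammals most of the injured cells die over the following weeks and do not regrow. The injury is reported to the nucleus through DLK and JNK kinase signalling, which switches on growth-associated genes such as Sox11 and Gap43 together with genes of the stress response and of cell death, while genes that serve the mature neuron are turned down.

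Per the labels, retinas were dissociated with papain and 5000 to 10000 sorted cells went into each library, made with SMART-Seq v4, a kit for small RNA inputs that does not keep the strand. The day 4 libraries held 26438822 and 20510457 counts over genes, and the day 3 libraries held 23752481, 22904051 and 23236961. Levels are given below as CPM, counts scaled to the TMM-normalised depth of the library, in replicate order. The ganglion cell label fitted the markers: the RNA-binding protein gene Rbpms stood at 219 and 217 CPM on day 4, against 248, 261 and 258 CPM on day 3, and Slc17a6, which encodes the vesicular glutamate transporter of ganglion cells, stood at 1652 and 1560 CPM on day 4, against 1808, 1679 and 1548 CPM on day 3. Neither gene passed the test (adjusted p = 0.191 for Rbpms and 0.820 for Slc17a6). Markers of other cells were present in every library. The summed level of 14 rod markers was 1291 and 1765 CPM on day 4, against 1791, 1841 and 1939 CPM on day 3. Xist, the RNA that coats the inactive X chromosome, stood at 4689 and 3583 CPM on day 4, against 961, 6.11 and 895 CPM on day 3. Both day 4 libraries were well above every day 3 library, and day 3 replicate 2 stood far below the other 4 libraries. Since the labels give no sex, a different mix of sexes on the 2 days cannot be told apart from the day. The number of calls without day 3 replicate 2 is given with the counts of calls.

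Few genes separated the days. Of 13737 genes tested, 239 (1.74%) passed an adjusted p of 0.05 in edgeR's quasi-likelihood test, of which 121 (0.881%) were higher and 118 (0.859%) lower on day 4. The rises were mostly large: their median log2 fold change of day 4 over day 3 was 1.61, and 72 of them (0.524% of genes tested) were at least 2-fold. Their median level was 13 CPM, with quartiles of 3.49 and 65.6 CPM, against quartiles of 4.71 and 63.4 CPM over all genes tested. The falls were smaller and sat on abundant genes: their median log2 fold change was -0.55 at a median level of 107 CPM, and 10 (0.0728%) were at least 2-fold. Over all genes tested the median log2 fold change was -0.01 and the median level 20.1 CPM. Libraries of the 2 days did not overlap for any of the 239 genes, a pattern also seen in 16.1% of all genes in the higher direction and 17.3% in the lower. Because these are bulk samples, fewer cells of a type and less RNA per cell cannot be told apart. The number of calls depended on each library. Leaving out day 3 replicate 1 gave 106 calls, replicate 2 of that day 103 and replicate 3 of it 103. It was 41 when day 4 replicate 2 was left out, and 1, with 1366 genes at an unadjusted p under 0.05 in edgeR, when day 4 replicate 3 was. All 239 genes kept their direction each time. Nptx1 was the 1 gene that passed in all 5 of these fits, so every other gene named below as having risen or fallen lost its call without at least 1 library. With the 5 libraries of days 3 and 4 fitted alone, 401 genes (2.96%) were higher and 255 (1.88%) lower. Counts of calls by gene list below stand beside these shares, and beside 0.881% higher and 0.859% lower in the fit of all days.

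**Figure D1:**
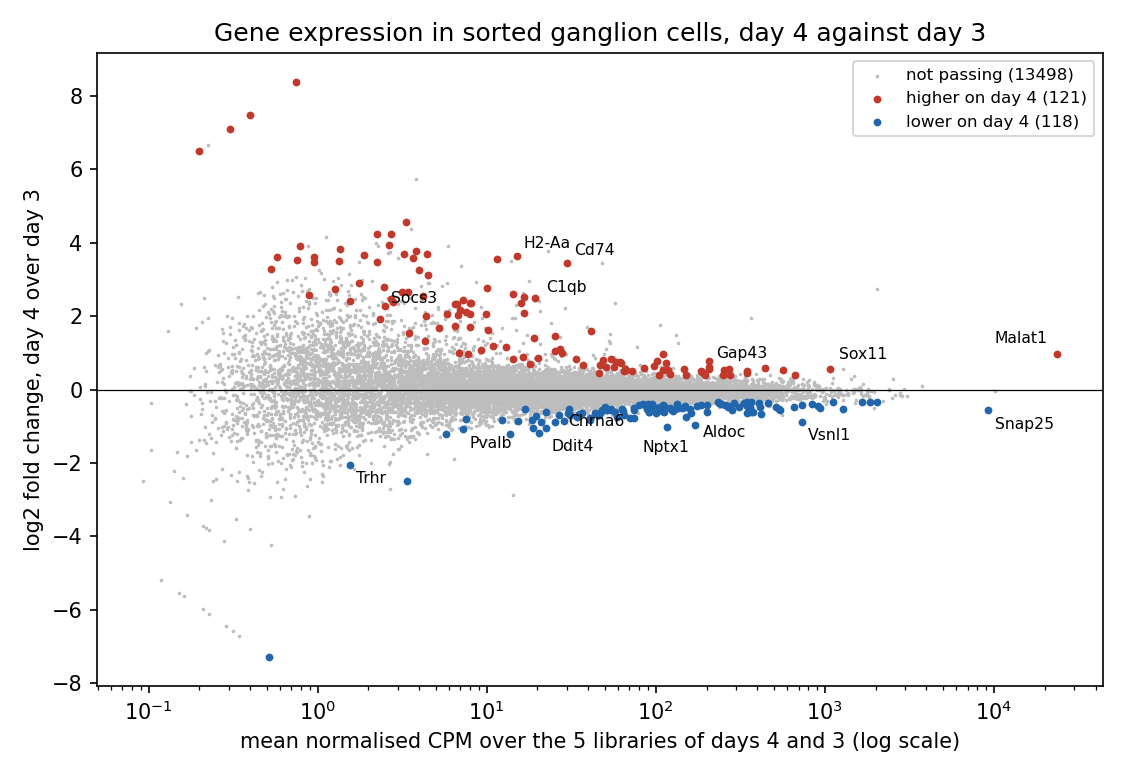
Each point is 1 of the 13737 genes tested, with its mean level over the 5 libraries in normalised CPM (log scale) across and its log2 fold change of day 4 over day 3 upward. The 121 genes that were higher on day 4 (red) span low to high levels, mostly with large changes. The 118 that were lower (blue) lie mostly at high levels with small changes.

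The largest rises were in genes of microglia and macrophages, the phagocytes of the retina and the blood. Among the 15 largest rises of genes with a mean of at least 5 CPM were the complement genes C1qa, C1qb and C1qc, the receptor genes Csf1r, C3ar1 and Cd180, and the MHC class II genes H2-Aa, H2-Eb1 and Cd74, which serve antigen presentation to T cells. Cd74, the invariant chain of MHC class II, stood at 40.9 and 91.3 CPM on day 4, against 4.82, 4.71 and 8.56 CPM on day 3. Both day 4 libraries were several times above the highest day 3 library, and the log2 fold change was 3.45 (SE 0.56, adjusted p = 0.00689). Without day 4 replicate 3, the higher of the pair, it was 2.76. H2-Aa stood at 25.0 and 42.4 CPM on day 4, against 2.39, 2.66 and 3.09 CPM on day 3, with a log2 fold change of 3.63 (SE 0.60, adjusted p = 0.00689). C1qb, a subunit of the complement starter C1q, stood at 27.9 and 48.9 CPM on day 4, against 7.55, 6.15 and 6.60 CPM on day 3, with a log2 fold change of 2.50 (SE 0.55, adjusted p = 0.0308). Csf1r, the receptor that keeps microglia alive, stood at 23.9 and 37.8 CPM on day 4, against 6.58, 4.06 and 7.43 CPM on day 3, with a log2 fold change of 2.35 (SE 0.42, adjusted p = 0.0110). Day 4 replicate 3 was the higher of the pair in each of these 4 genes.

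Other genes among the largest rises were in part of the same cells. The chemokine gene Ccl3 rose by 2.59 on the log2 scale, Ly86, a partner of Cd180, by 2.77, the protease gene Ctsh by 2.44, the cytoskeletal gene Lcp1 by 2.17 and the adaptor gene Fyb by 2.37, which was 1.65 without day 4 replicate 3. Inhbb, a subunit gene of activin, is no marker of phagocytes; it stood at 10.9 and 17.2 CPM on day 4, against 4.32, 2.92 and 2.42 CPM on day 3, with a log2 fold change of 2.12 (SE 0.41, adjusted p = 0.0164). In a list of 17 markers of microglia and macrophages, 5 rose (C1qa, C1qb, C1qc, Cx3cr1 and Csf1r), none fell and 12 did not pass. The median log2 fold change of the list was 1.92, and 16 of its 17 members were higher in both day 4 libraries than in any day 3 library, as were 16.1% of all genes. The other 1 was lower without overlap, as were 17.3% of all genes, with a log2 fold change of -0.21. In the fit of the 5 libraries alone 15 of the 17 were higher, as were 2.96% of all genes. The summed level of the list was 509 and 686 CPM on day 4, against 302, 267 and 241 CPM on day 3, and no member was at 0 in any of the 5 libraries. The part of these cells in the other rises was not tested.

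Interferon-stimulated genes were higher in both day 4 libraries, but most missed the threshold. Interferons are antiviral signals that act on promoters that hold the interferon-stimulated response element. All 28 list members tested had a positive log2 fold change, with a median of 2.93, and did not overlap between the days. Of all genes, 16.1% were higher without overlap. Only Trim30a of the 28 passed in the fit of all days. Trim30a stood at 8.60 and 11.2 CPM on day 4, against 1.30, 0.742 and 0.251 CPM on day 3, with a log2 fold change of 3.68 (SE 0.85, adjusted p = 0.0385), or 4.31 without day 3 replicate 1. Ifit1, which encodes a protein that binds foreign RNA, stood at 46.2 and 58.3 CPM on day 4, against 4.45, 3.06 and 3.80 CPM on day 3, with a log2 fold change of 3.79 (SE 1.10, adjusted p = 0.0973). Ifih1, which encodes the RNA sensor MDA5, stood at 16.1 and 19.9 CPM on day 4, against 3.56, 1.96 and 1.46 CPM on day 3, with a log2 fold change of 2.94 (SE 0.77, adjusted p = 0.0634). The fit of all days carries the spread of days 0 to 2, where the summed level of the list ran from 307 to 4695 CPM. Of the 28, 24 were higher at an unadjusted p under 0.05 in edgeR, as were 7.22% of all genes tested. In the fit of the 5 libraries alone 25 were higher, as were 2.96% of all genes. The list's sum was 842 and 993 CPM on day 4, against 255, 224 and 235 CPM on day 3. The 14 genes of MHC class I presentation had a median log2 fold change of 1.29, with 0 passing in edgeR's fit of all days, 5 at an unadjusted p under 0.05, 0 by DESeq2 and 10 higher in the fit of the 5 libraries. Their sum was 1171 and 1211 CPM on day 4, against 402, 367 and 346 CPM on day 3.

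The promoters of these 3 genes, which were chosen among list members with a match, show the element that gives the class its name. They are RefSeq sequences of build GRCm38.p6, from 250 bases before to 50 after the start site, with matches to the element, searched as GAAA, any 2 bases and GAAA again on either strand, in capitals. The element was found in 14 of the 21 list members with a promoter in the table (66.7%), in 9 of 86 genes higher on day 4 (10.5%), in 2 of 92 lower (2.17%) and in 374 of 10797 tested genes (3.46%). A match describes letters and is no sign of binding.
Trim30a promoter, chr7:104465144-104465443, - strand: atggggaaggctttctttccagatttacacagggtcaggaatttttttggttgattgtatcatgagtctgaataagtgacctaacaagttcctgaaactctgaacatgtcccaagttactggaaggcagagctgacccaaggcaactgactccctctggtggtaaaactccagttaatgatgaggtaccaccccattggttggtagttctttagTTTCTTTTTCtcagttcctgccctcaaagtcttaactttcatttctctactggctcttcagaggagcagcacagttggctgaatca
Ifih1 promoter, chr2:62646206-62646505, - strand: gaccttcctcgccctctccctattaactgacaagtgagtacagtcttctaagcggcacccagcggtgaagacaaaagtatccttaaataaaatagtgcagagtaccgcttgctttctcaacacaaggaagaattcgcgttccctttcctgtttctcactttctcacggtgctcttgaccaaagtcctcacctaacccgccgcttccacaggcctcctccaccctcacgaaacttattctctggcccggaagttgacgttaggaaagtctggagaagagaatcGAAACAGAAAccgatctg
Ifit1 promoter, chr19:34640639-34640938, + strand: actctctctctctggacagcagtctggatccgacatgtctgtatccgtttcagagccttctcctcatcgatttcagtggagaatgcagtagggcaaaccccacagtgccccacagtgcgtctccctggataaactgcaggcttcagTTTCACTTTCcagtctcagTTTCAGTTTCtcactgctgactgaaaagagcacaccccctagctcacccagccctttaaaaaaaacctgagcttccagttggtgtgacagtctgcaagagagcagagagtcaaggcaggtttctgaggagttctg
Ifit1 holds 2 matches, and Trim30a and Ifih1 hold 1 each.

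The time course places these rises beside the earlier days. For 58 of the 121 genes that were higher on day 4, all 3 day 3 libraries lay below all 8 libraries of days 0 to 2. The same held for 10.7% of all genes tested. The count of 58 was partly set by the calls, which used the same day 3 values. The summed interferon list in each day 3 library was under that of every library of another day, though by little for a pair of the day 0 libraries: it was 307, 322 and 3979 CPM on day 0 and between 1565 and 4695 CPM on days 1 and 2. The summed microglia and macrophage list had no such low, since its day 3 sums of 241 to 302 CPM lay within its range of 177 to 1739 CPM on days 0 to 2. Some single genes did: all day 3 libraries of Cd74, H2-Aa and C1qb lay below all 8 libraries of days 0 to 2. The list's sum rested mostly on other members, as C1qa, C1qb, C1qc and Csf1r averaged 3.06, 6.77, 5.72 and 6.03 CPM on day 3. For C1qb the highest day 3 library was at 7.55 CPM and the lowest earlier library at 10.3 CPM. Csf1r overlapped, with 7.43 CPM in day 3 replicate 3 and 6.73 CPM in day 0 replicate 3. Cd74 averaged 25.8 CPM on day 0, 60.8 on day 1 and 119 on day 2, so both day 4 libraries were under the day 2 mean.

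**Figure D2:**
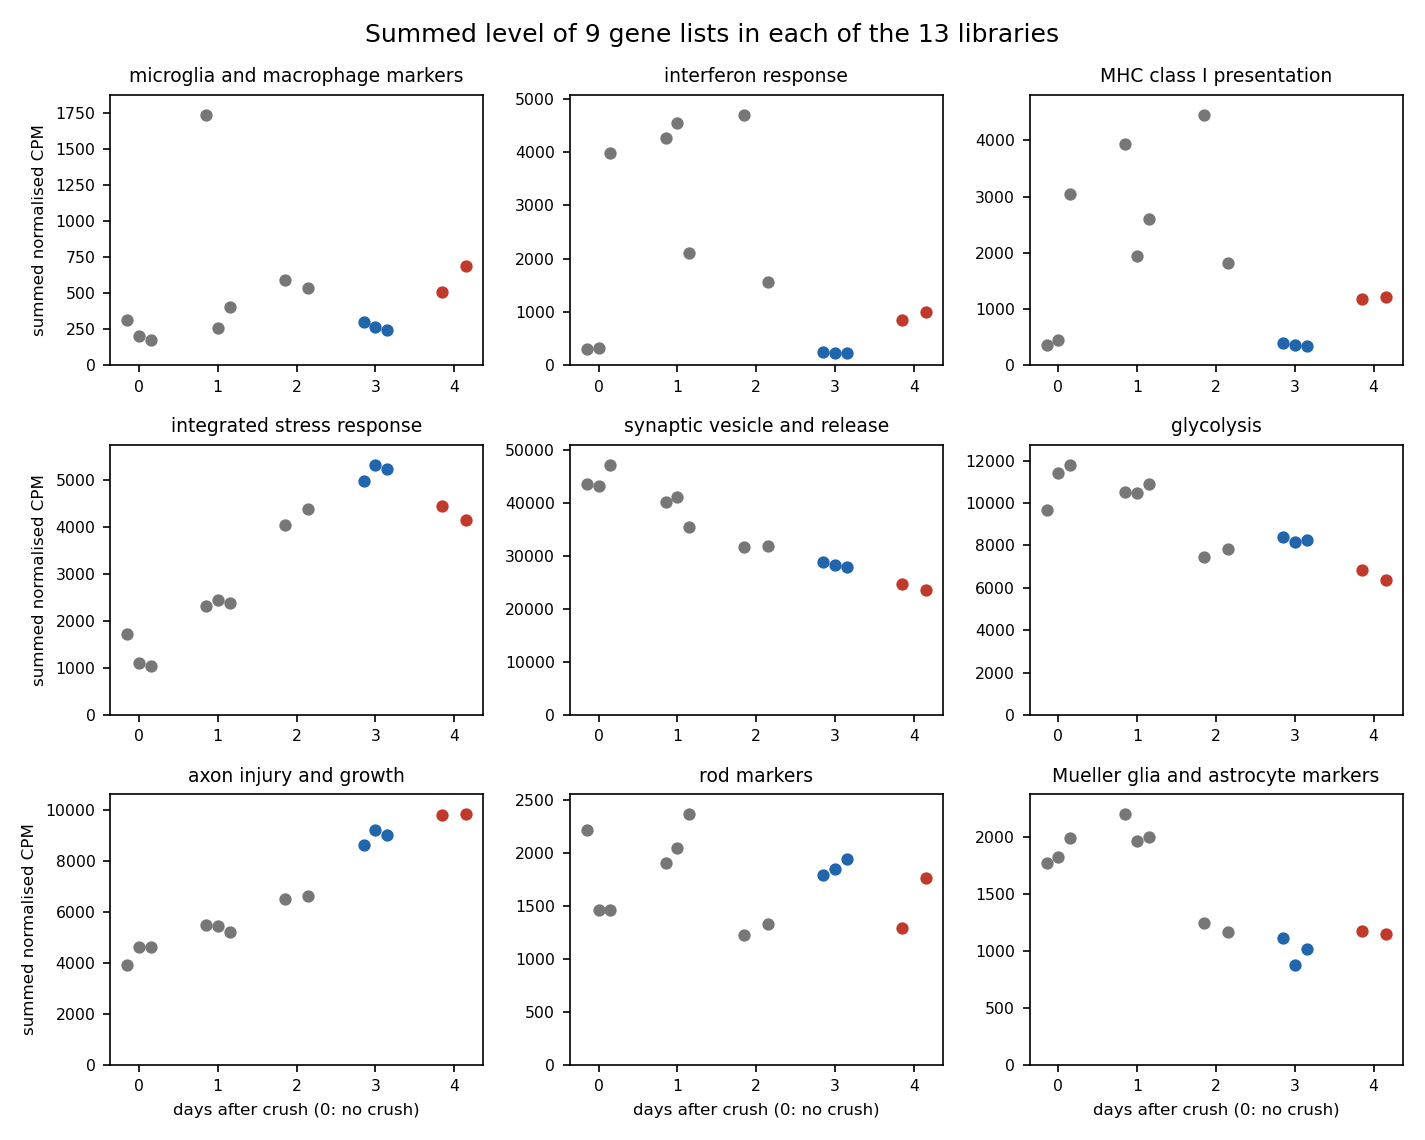
Each point is 1 library, with the day after crush across and the summed normalised CPM of a gene list upward, for 9 lists and 13 libraries (day 4 red, day 3 blue, days 0 to 2 grey). The interferon sums of 224 to 255 CPM on day 3 are the lowest of the course, and the synaptic vesicle sums of 23650 and 24630 CPM on day 4 are the lowest of theirs.

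Other rises stood above days 0 to 2. For 38 of the 121 genes, both day 4 libraries were above all 8 libraries of days 0 to 2, as they were for 14.5% of all genes tested. The count of 38 was partly set by the calls, which used the same day 4 values. Sox11, a transcription factor gene that promotes axon growth, stood at 1318 and 1360 CPM on day 4, against 913, 955 and 858 CPM on day 3, with a log2 fold change of 0.56 (SE 0.09, adjusted p = 0.00683). It had averaged 42.0 CPM on day 0, 315 on day 1 and 834 on day 2. Gap43, which encodes a protein of the growth cone, stood at 671 and 718 CPM on day 4, against 488, 506 and 450 CPM on day 3, with a log2 fold change of 0.53 (SE 0.10, adjusted p = 0.0164). Gal, which encodes the neuropeptide galanin, stood at 34.1 and 26.7 CPM on day 4, against 13.1, 8.82 and 12.8 CPM on day 3, with a log2 fold change of 1.39 (SE 0.28, adjusted p = 0.0221). In all 3 genes both day 4 libraries were above every day 3 library.

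In the list of 35 genes of axon injury and growth, 4 rose (Sox11, Gal, Gap43 and Socs3), Cap2 fell and 30 did not pass, with a median log2 fold change of 0.10. Socs3, an inhibitor of cytokine signalling that is known to limit optic nerve regrowth, stood at 9.23 and 15.5 CPM on day 4, against 4.03, 2.84 and 2.21 CPM on day 3, with a log2 fold change of 2.02 (SE 0.36, adjusted p = 0.0108). Cap2, an actin regulator, fell by 0.44 on the log2 scale. Other injury genes did not pass. Atf3, an injury-induced transcription factor gene, stood at 544 and 569 CPM on day 4, against 450, 529 and 482 CPM on day 3 (adjusted p = 0.563). Jun stood at 451 and 423 CPM on day 4, against 423, 455 and 411 CPM on day 3 (adjusted p = 0.971). Sprr1a, which promotes neurite outgrowth, stood at 424 and 394 CPM on day 4, against 617, 668 and 700 CPM on day 3. Its groups did not overlap, its log2 fold change was -0.69 (SE 0.41, adjusted p = 0.460), and its adjusted p was 1.34e-06 in the fit of the 5 libraries alone. Ecel1, an endopeptidase gene induced by nerve injury, had a log2 fold change of 0.55 that did not pass (SE 0.22, adjusted p = 0.249). Its groups did not overlap either, and its adjusted p was 0.000151 in edgeR's fit of the 5 libraries alone.

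Adhesion, growth factor and death genes added single rises. Chl1, a neural cell adhesion gene, stood at 147 and 125 CPM on day 4, against 79.0, 82.4 and 75.9 CPM on day 3, with a log2 fold change of 0.78 (SE 0.11, adjusted p = 0.00624). Ret, the signalling receptor for the GDNF family, stood at 303 and 285 CPM on day 4, against 209, 230 and 229 CPM on day 3, with a log2 fold change of 0.40 (SE 0.09, adjusted p = 0.0385), and it was the 1 gene of 23 growth factor receptors that rose, with none falling. Bcl2l11, which encodes the death promoter BIM, stood at 329 and 293 CPM on day 4, against 212, 255 and 175 CPM on day 3, with a log2 fold change of 0.54 (SE 0.12, adjusted p = 0.0360), and it was the 1 gene of 27 of apoptosis that passed. Hrk, another BH3-only death gene, stood at 236 and 224 CPM on day 4, against 156, 206 and 163 CPM on day 3, without overlap and without passing (adjusted p = 0.173, and 0.0165 in the fit of the 5 libraries alone). Eomes, a transcription factor gene of some ganglion cell subtypes, rose by 0.89 on the log2 scale, and the other 19 of 20 subtype genes did not pass. Malat1, a nuclear long non-coding RNA singled out after its values were seen, took 3.19% and 3.65% of all counts on day 4, against 1.80%, 1.53% and 1.84% on day 3, with a log2 fold change of 0.98 (SE 0.13, adjusted p = 0.00362).

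**Figure D3:**
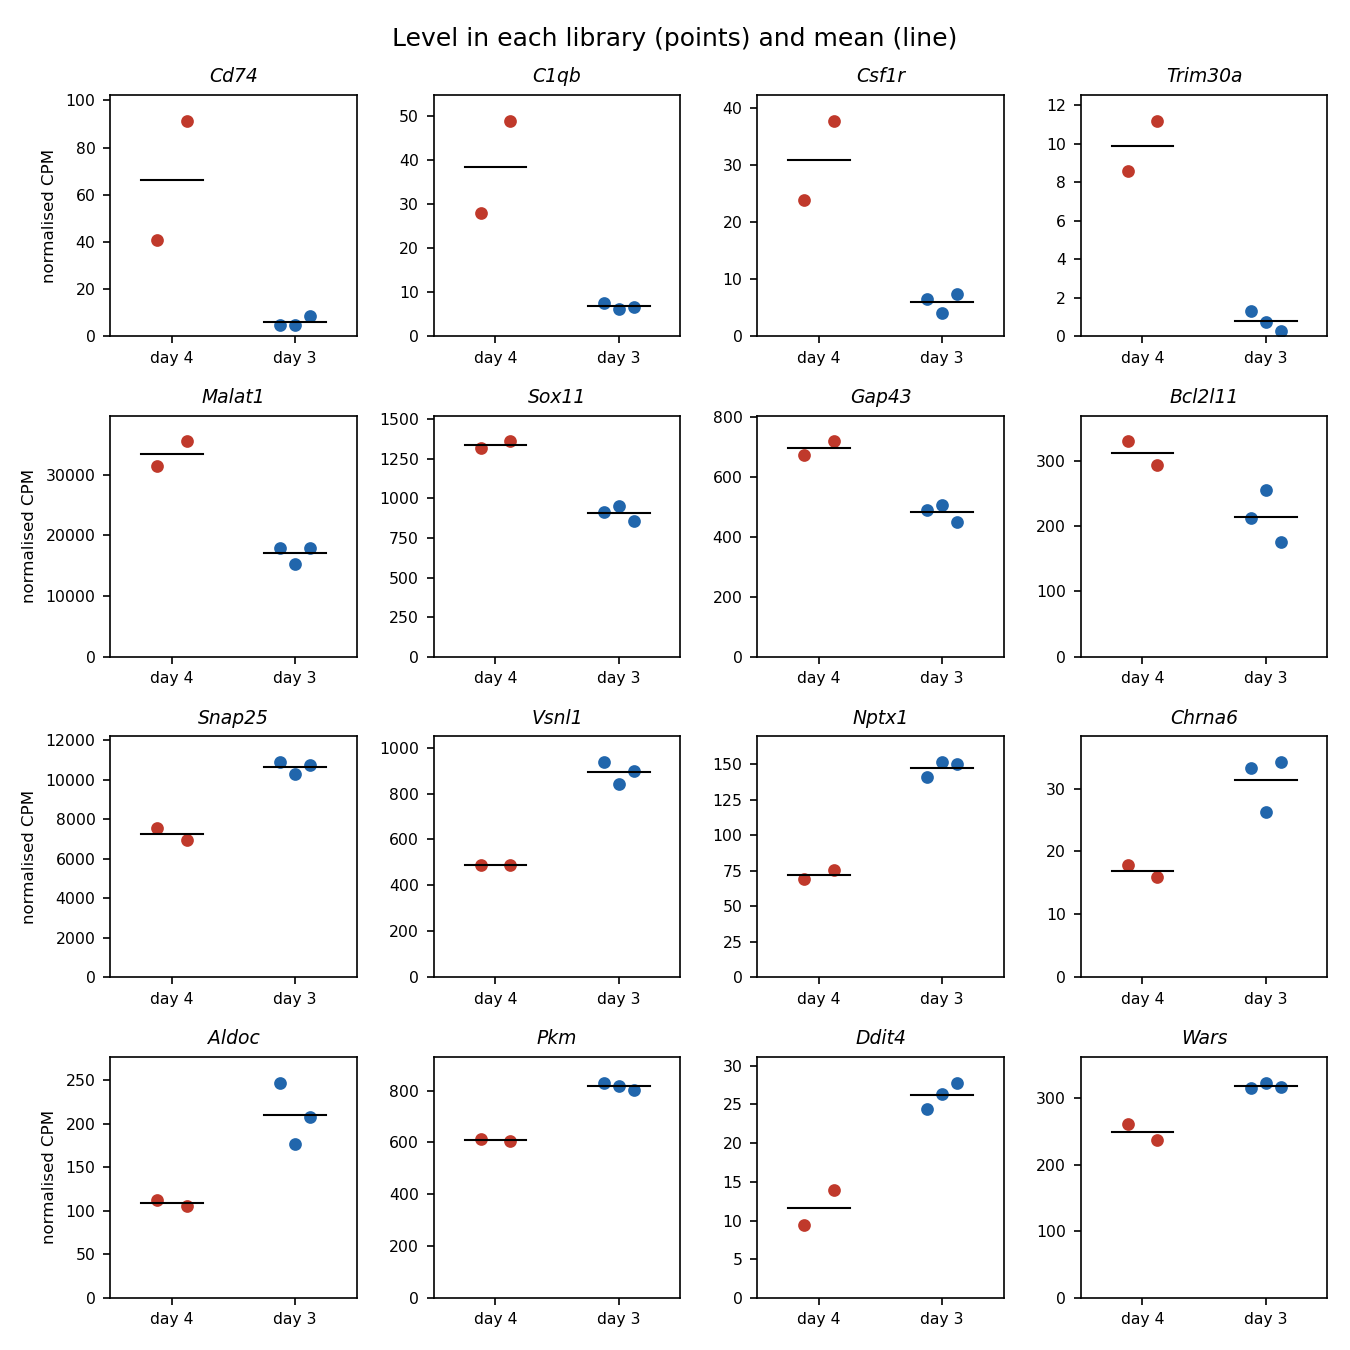
Points are the normalised CPM of 16 genes in the 2 day 4 libraries (red, left) and the 3 day 3 libraries (blue, right), and lines are means; each axis starts at 0. In none of the 16 panels do the days overlap: Cd74 at 40.9 and 91.3 CPM on day 4 is far above 8.56 CPM, its highest day 3 value, while Pkm at 614 and 606 CPM on day 4 is under 802 CPM, its lowest day 3 value.

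Genes of synaptic transmission and excitability, which are abundant in mature neurons, were among the falls. Nptx1, which encodes a pentraxin that gathers glutamate receptors at synapses, lies at chr11:119538719-119547753 (mm10, reverse strand). It stood at 68.9 and 75.7 CPM on day 4, against 141, 152 and 150 CPM on day 3. Both day 4 libraries were below all day 3 libraries, and the log2 fold change was -1.03 (SE 0.11, adjusted p = 0.000474), the smallest p of the comparison. Snap25, a core protein of vesicle fusion, stood at 7554 and 6942 CPM on day 4, against 10898, 10300 and 10730 CPM on day 3, with a log2 fold change of -0.55 (SE 0.09, adjusted p = 0.00683). Vsnl1, a neuronal calcium sensor gene, stood at 487 and 488 CPM on day 4, against 937, 842 and 900 CPM on day 3, with a log2 fold change of -0.87 (SE 0.11, adjusted p = 0.00252). In each of these genes the day 4 pair was close together and below all day 3 libraries.

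Counted by list, 4 of 32 genes of synaptic vesicles and release fell (Snap25, Rab3a, Cplx1 and Cplx2), none rose and 28 did not pass, with a median log2 fold change of -0.15. In the fit of the 5 libraries alone 7 of the 32 were lower and 3 higher, as were 1.88% and 2.96% of all genes. Cplx1 and Cplx2 encode complexins, which clamp vesicle fusion, and Rab3a a vesicle GTPase; their log2 fold changes were -0.62, -0.46 and -0.59. Of 25 genes of calcium channels and buffers, 5 fell (Cacng3, Calb1, Calb2, Pvalb and Vsnl1), none rose and 20 did not pass. Pvalb, which encodes the calcium buffer parvalbumin, stood at 4.37 and 4.41 CPM on day 4, against 9.52, 10.0 and 8.14 CPM on day 3, with a log2 fold change of -1.07 (SE 0.16, adjusted p = 0.00651). The calcium buffer genes Calb1 and Calb2 fell by 0.79 and 0.62 on the log2 scale, and Calb2 is also a marker of amacrine cells. Calb1 did not pass in edgeR's fit of the 5 libraries alone (adjusted p = 0.162). Of 36 potassium channel genes, Kcna2 and Kcnip1 fell, and of 12 sodium channel genes Scn1a fell, with no rise in either list. Of 35 receptor genes for glutamate, GABA and glycine, Gria4, Grin1 and Gabra2 fell, Grik1 rose and 31 did not pass. Grin1, the obligatory subunit of NMDA receptors, stood at 88.8 and 80.0 CPM on day 4, against 116, 124 and 148 CPM on day 3, with a log2 fold change of -0.62 (SE 0.11, adjusted p = 0.0131). Grik1, a kainate receptor subunit gene, had a log2 fold change of 1.00 at a low level, with 9.75 and 9.85 CPM on day 4, against 3.98, 4.41 and 6.31 CPM on day 3, and it did not pass in edgeR's fit of the 5 libraries alone (adjusted p = 0.0648).

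Of 7 nicotinic receptor subunit genes on the list of other transmitter receptors, Chrna6 and Chrnb3 fell and 5 did not pass. Chrna6, which is typical of ganglion cells, stood at 17.9 and 15.9 CPM on day 4, against 33.3, 26.3 and 34.2 CPM on day 3, with a log2 fold change of -0.89 (SE 0.11, adjusted p = 0.00252). Its partner Chrnb3 stood at 142 and 165 CPM on day 4, against 268, 217 and 219 CPM on day 3, with a log2 fold change of -0.61 (SE 0.10, adjusted p = 0.00689). Trhr, the receptor gene for thyrotropin-releasing hormone, was low, at 0.673 and 0.379 CPM on day 4, against 1.72, 1.79 and 3.17 CPM on day 3, with a log2 fold change of -2.05 (SE 0.38, adjusted p = 0.0132). In the fit of the 5 libraries alone its adjusted p was 0.128. These 3 of 22 other transmitter receptor genes fell, none rose, and the list's median was -0.43. Of 33 axon guidance genes, Sema3a, Dcc and Unc5d fell and none rose. Sema3a, a repellent cue, stood at 47.2 and 47.8 CPM on day 4, against 73.3, 72.8 and 83.5 CPM on day 3, with a log2 fold change of -0.69 (SE 0.12, adjusted p = 0.00787).

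Glycolysis genes fell in part. Of 22 tested, 5 fell (Gpi1, Pfkl, Aldoa, Aldoc and Pkm), none rose and 17 did not pass, with a median log2 fold change of -0.25. In the fit of the 5 libraries alone 7 were lower, as were 1.88% of all genes. Aldoc, an aldolase of neurons and glia, stood at 112 and 105 CPM on day 4, against 247, 177 and 207 CPM on day 3, with a log2 fold change of -0.95 (SE 0.13, adjusted p = 0.00362). Pkm, the pyruvate kinase gene, stood at 614 and 606 CPM on day 4, against 831, 819 and 802 CPM on day 3, with a log2 fold change of -0.42 (SE 0.08, adjusted p = 0.0164). Pfkl, a subunit gene of phosphofructokinase, had a log2 fold change of -0.64, and Aldoa one of -0.52. The summed level of the list was 6826 and 6370 CPM on day 4, against 8412, 8166 and 8244 CPM on day 3. Aldoc is also on the list of Mueller glia and astrocyte markers, where it fell while Glul and Clu rose, by 0.41 and 0.59 on the log2 scale, and 12 of 15 did not pass; that list summed to 1178 and 1148 CPM on day 4, against 1110, 874 and 1020 CPM on day 3, and its part in these results was not tested. Of 54 genes of oxidative phosphorylation 0 passed in edgeR, 9 were lower at an unadjusted p under 0.05 (7.84% of all genes tested were), 1 was lower by DESeq2, and the list's median log2 fold change was -0.13.

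Genes of the integrated stress response lay slightly lower on day 4, and 1 passed. In this pathway ATF4 and its partners switch on amino acid synthesis and transport when translation is checked. All 32 members tested had log2 fold changes below 0, as did 7116 of the 13737 genes tested, and the list's median was -0.29. Of the 32, 18 were lower without overlap between the days, as were 17.3% of all genes, yet only Ddit4 passed. Ddit4, an inhibitor of mTORC1, stood at 9.38 and 13.9 CPM on day 4, against 24.5, 26.4 and 27.8 CPM on day 3, with a log2 fold change of -1.18 (SE 0.24, adjusted p = 0.0231). The adjusted p of Ddit4 was 0.215 without day 4 replicate 2 and 0.0953 without day 4 replicate 3. Atf4 stood at 593 and 528 CPM on day 4, against 573, 626 and 646 CPM on day 3 (adjusted p = 0.773). Ddit3, which encodes CHOP, stood at 191 and 172 CPM on day 4, against 210, 241 and 245 CPM on day 3 (log2 fold change -0.35, SE 0.13, adjusted p = 0.201). The list summed to 4451 and 4144 CPM on day 4, against 4969, 5321 and 5238 CPM on day 3, and to between 1042 and 4388 CPM on days 0 to 2. In the fit of the 5 libraries alone 10 of the 32 were lower, as were 1.88% of all genes. Of 19 aminoacyl-tRNA synthetase genes, Wars fell, at 261 and 237 CPM on day 4, against 315, 323 and 317 CPM on day 3, with a log2 fold change of -0.35 (SE 0.08, adjusted p = 0.0359).

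ATF4 and its partners bind a composite site, written here as TGATGNAA. It was found on either strand in the promoters of 9 of 27 list members (33.3%), of 4 of 86 genes higher on day 4 (4.65%), of 1 of 92 lower (1.09%) and of 307 of 10797 tested genes (2.84%). The promoters of Nupr1, a stress-induced chromatin protein gene, and Slc1a4, a neutral amino acid transporter gene, are shown as members that hold it, with the match in capitals and from the same RefSeq build. Neither passed: Nupr1 stood at 24.1 and 21.8 CPM on day 4, against 44.5, 36.1 and 35.9 CPM on day 3, and Slc1a4 at 167 and 152 CPM on day 4, against 205, 205 and 198 CPM on day 3.
Nupr1 promoter, chr7:126625421-126625720, - strand: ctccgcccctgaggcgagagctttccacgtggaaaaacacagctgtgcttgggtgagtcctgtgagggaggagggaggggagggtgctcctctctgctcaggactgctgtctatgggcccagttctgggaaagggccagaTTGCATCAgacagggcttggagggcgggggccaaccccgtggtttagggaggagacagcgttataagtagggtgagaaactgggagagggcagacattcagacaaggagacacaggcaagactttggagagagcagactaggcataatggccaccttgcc
Slc1a4 promoter, chr11:20332664-20332963, - strand: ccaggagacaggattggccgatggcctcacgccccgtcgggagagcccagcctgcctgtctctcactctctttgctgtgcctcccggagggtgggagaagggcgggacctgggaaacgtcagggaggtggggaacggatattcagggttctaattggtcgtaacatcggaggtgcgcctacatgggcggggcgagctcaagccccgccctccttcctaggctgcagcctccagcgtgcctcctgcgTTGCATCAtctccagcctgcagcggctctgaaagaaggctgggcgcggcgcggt
Each of these promoters holds 1 match.

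Most ganglion cell identity genes did not pass. Of 24, Chrna6 and Chrnb3 fell, Gap43 rose and 21 did not pass, with a median log2 fold change of -0.09. Without overlap 9 of the 24 were lower and 3 higher, as were 17.3% and 16.1% of all genes. In the fit of the 5 libraries alone 5 were lower and 2 higher, as were 1.88% and 2.96% of all genes. Thy1, a surface glycoprotein gene, stood at 1561 and 1334 CPM on day 4, against 1366, 1546 and 1658 CPM on day 3 (adjusted p = 0.774). The transcription factor genes Pou4f1 (adjusted p = 0.937) and Pou4f2 (adjusted p = 0.427) did not pass, and neither did Sncg (adjusted p = 0.994). Pou4f2 stood at 51.8 and 42.9 CPM on day 4, against 56.9, 56.1 and 50.7 CPM on day 3, so the groups overlapped. Among genes of the axonal cytoskeleton, Tppp3 rose by 0.45 and Tppp fell by 0.40 on the log2 scale, both tubulin polymerisation genes, with 28 of 30 not passing; Tppp3 did not pass in edgeR's fit of the 5 libraries alone (adjusted p = 0.0609). Mapk10, which encodes the neuronal kinase JNK3, was the 1 of 24 genes of DLK and JNK signalling that passed, at 334 and 366 CPM on day 4, against 463, 461 and 429 CPM on day 3, with a log2 fold change of -0.37 (SE 0.09, adjusted p = 0.0395).

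**Figure D4:**
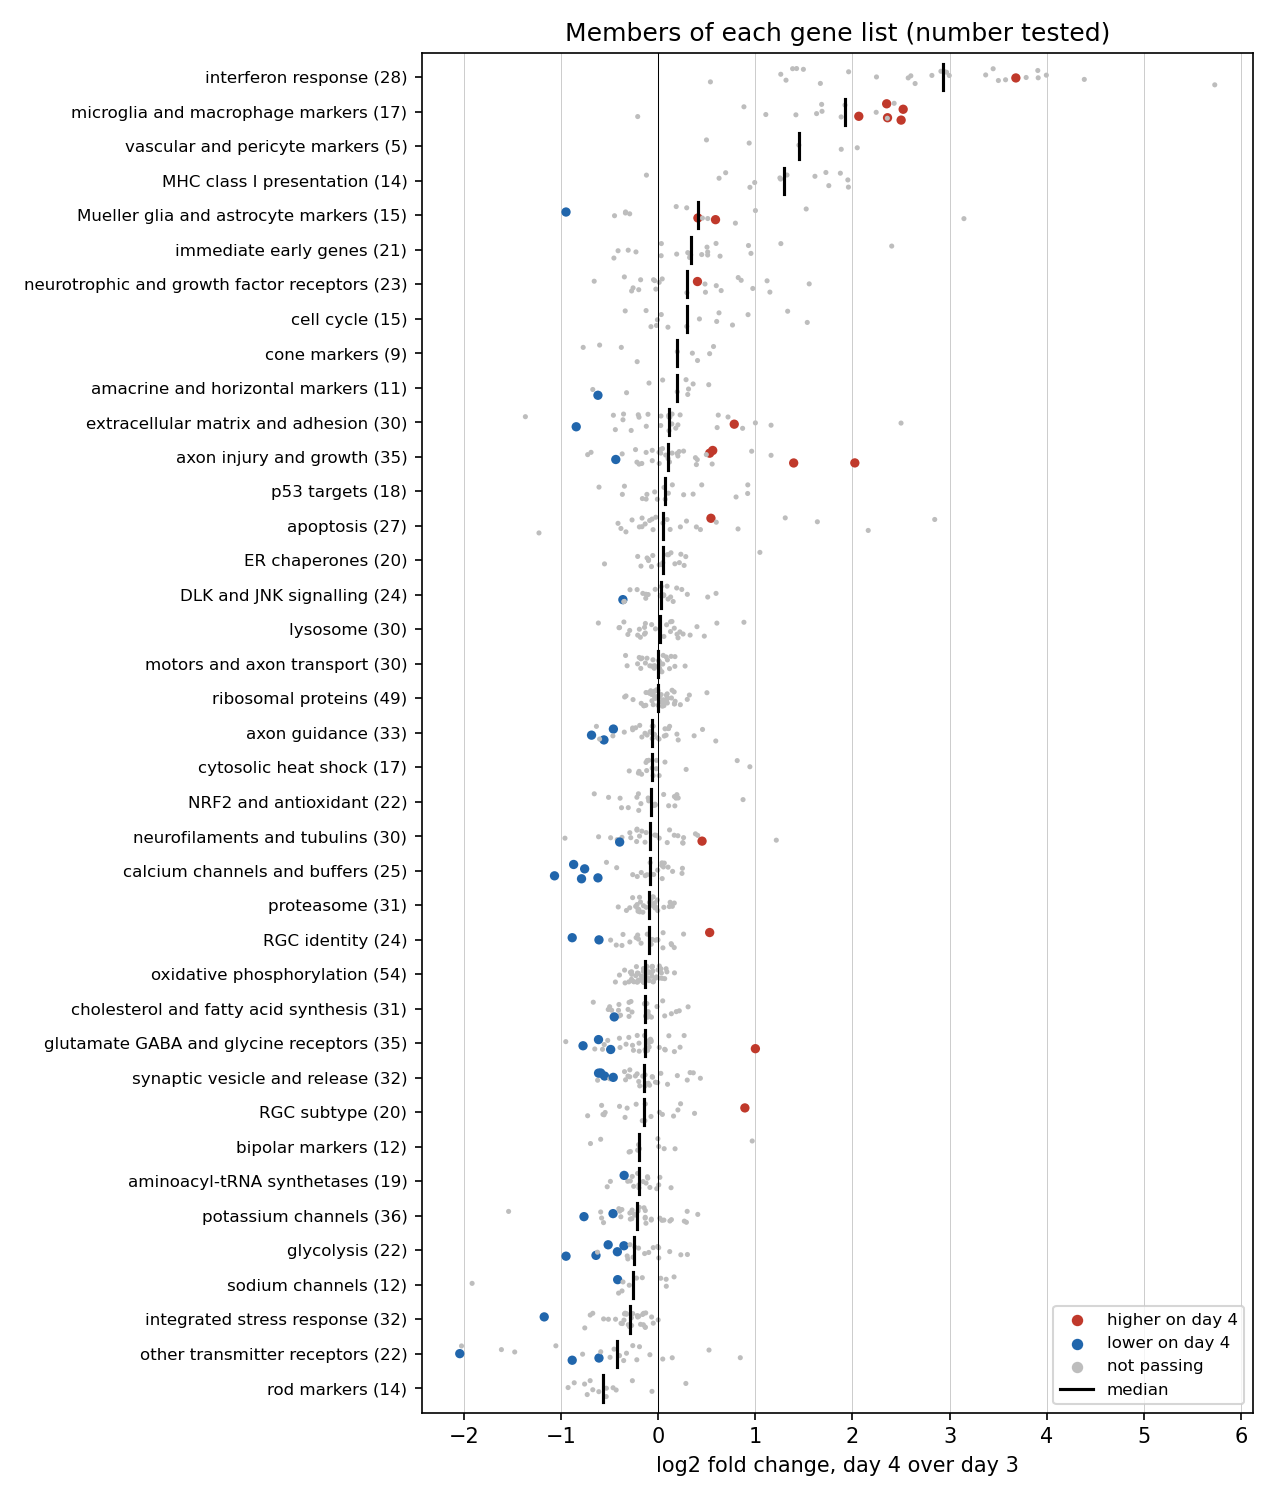
Each point is 1 gene, placed by its log2 fold change of day 4 over day 3, with lists of at least 5 tested genes ordered by median (black line); red and blue mark genes that passed. The interferon list (median 2.93) and the microglia and macrophage list (1.92) lie at the top, and the rod markers (-0.58) at the bottom with no gene passing. With 1 library left out, the rod median ran from -1.21 to -0.177.

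Lists without any call in the fit of all days covered ER chaperones (20 genes), cytosolic heat shock (17), NRF2 targets (22), p53 targets (18), axon transport motors (30), immediate early genes (21), the proteasome (31), the lysosome (30), ribosomal proteins (49) and the cell cycle (15). Of their 253 genes, 17 were higher and 20 lower at an unadjusted p under 0.05 in edgeR, where 7.22% of all genes tested were higher and 7.84% lower. DESeq2 called 3 of the 253 higher and 6 lower, and limma called 0. Their median log2 fold changes ran from -0.09 for the proteasome to 0.33 for immediate early genes. Of the 30 lysosome genes, 12 were higher and 10 lower without overlap, as were 16.1% and 17.3% of all genes. Of the 21 immediate early genes, 10 were higher and 4 lower without overlap. The fit of the 5 libraries alone called 4 lysosome genes higher and 4 lower. It called 4 immediate early genes higher and 0 lower, where 2.96% of all genes were higher and 1.88% lower. Among markers of other cells, 0 of 14 rod, 9 cone, 12 bipolar, 3 oligodendrocyte and 1 red cell genes passed in edgeR, 0 of them had an unadjusted p under 0.05 and DESeq2 called 0. Of the 14 rod genes, 6 were lower without overlap, as were 17.3% of all genes. In the fit of the 5 libraries alone 2 were lower, as were 1.88% of all genes. Of 5 vascular genes 0 passed and 3 were higher at an unadjusted p under 0.05, with a median log2 fold change of 1.45. Calb2 was the 1 fall among 11 amacrine and horizontal cell genes. A gene that did not pass may still differ, since in simulated data for this comparison 31 of 100 changes of 1.5-fold and 72 of 100 of 2-fold were recovered. The changed genes in the simulation averaged at least 5 CPM, so recovery at lower levels was not tested. Hapln4, a proteoglycan link protein gene, and Elovl6, a fatty acid elongase gene, were single falls on the lists of extracellular matrix (30 genes) and of cholesterol and fatty acid synthesis (31 genes), by 0.85 and 0.45 on the log2 scale. Among the 15 largest falls were also Slc16a14 and Slc35a2, genes of membrane transporters (-1.22 and -1.20), Hpgd, a prostaglandin dehydrogenase gene (-1.05), Mmp9, a matrix metalloprotease gene (-1.04), the serpin genes Serpinb8 and Serpinf1 (-0.88 and -0.82), the myosin gene Myh14 (-0.87) and P4htm, a prolyl hydroxylase gene (-0.83). Slc35a2 did not pass in edgeR's fit of the 5 libraries alone (adjusted p = 0.0533).

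**Figure D5:**
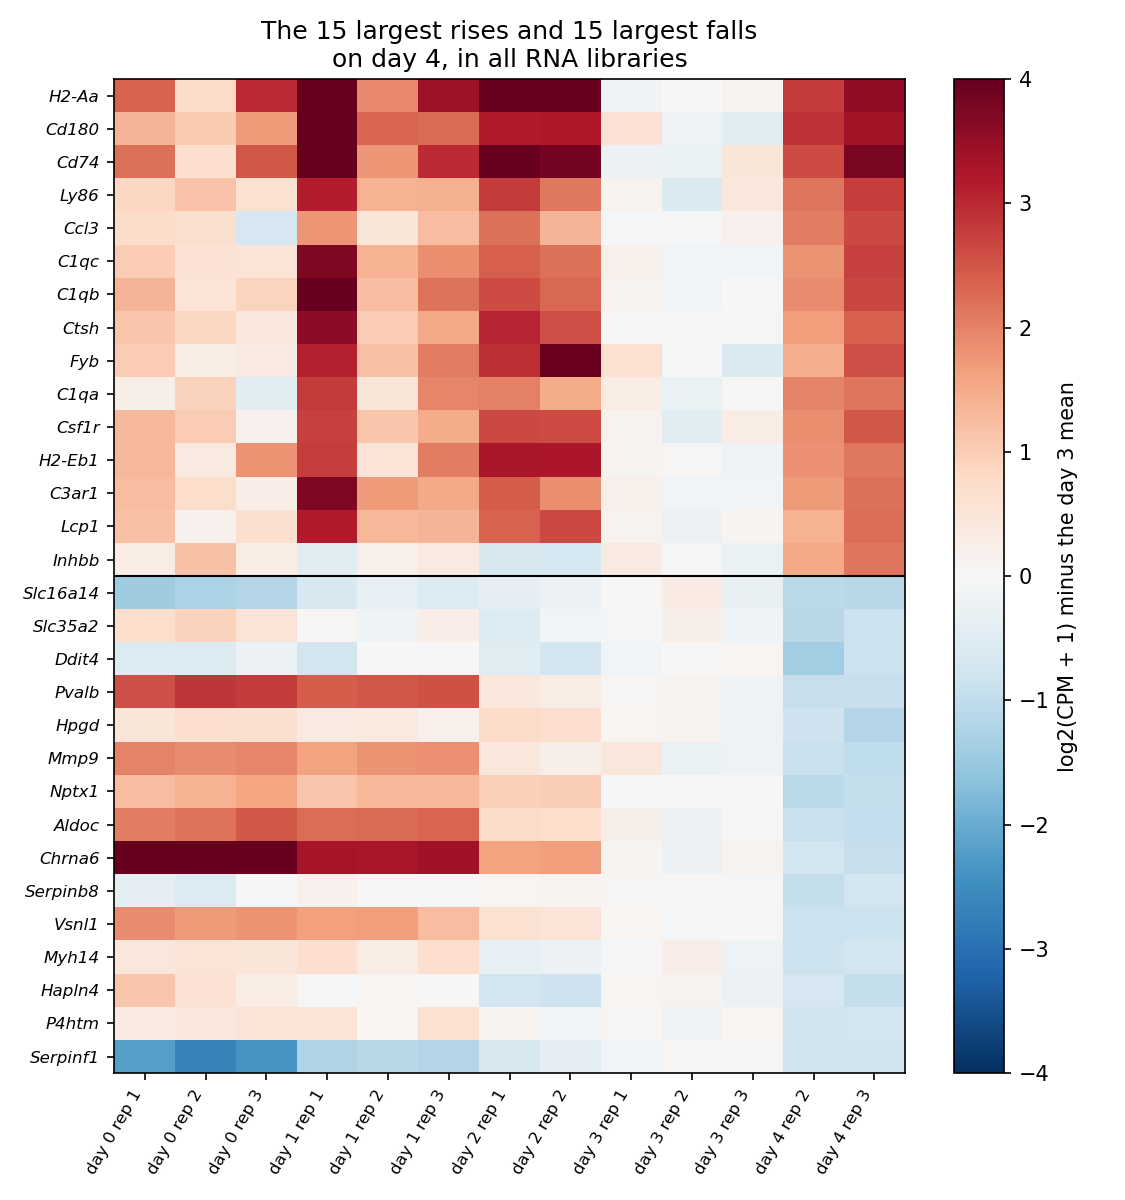
Colour is log2(CPM + 1) minus the mean of the 3 day 3 libraries, for the 15 largest rises (top) and 15 largest falls (bottom) in rows and the 13 RNA libraries in columns from day 0 to day 4. Most of the rises are red on day 2 as well as on day 4, and Chrna6, Pvalb and Aldoc among the falls are red on days 0 and 1.

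Most of the falls had the direction of the first days after crush. Day 2 against day 0 shares no library with day 4 against day 3. Both comparisons came from the 1 fit of all days and its estimate of the spread, so their calls are not independent. The shares over all genes given beside them were not matched for level. Of the 118 genes lower on day 4, 72 (61.0%) were also lower on day 2 than on day 0, where 14.5% of all genes were lower, 19 (16.1%) were higher and 27 not called. Both day 4 libraries of 96 of the 118 lay under all 8 libraries of days 0 to 2, as did those of 14.9% of all genes tested. The count of 96 was partly set by the calls, which used the same day 4 values. Of the 121 genes higher on day 4, 59 (48.8%) were higher on day 2 than on day 0, where 14.8% of all genes were higher, 13 (10.7%) were lower and 49 not called. Genes that turned round include Vgf, a neuropeptide precursor gene singled out after its values were seen, which averaged 10.3 CPM on day 0, 19.8 on day 1 and 65.3 on day 2, and stood at 110 and 104 CPM on day 4, against 151, 202 and 189 CPM on day 3, with a log2 fold change of -0.75 (SE 0.18, adjusted p = 0.0457). Marcks, an actin-linking substrate gene of protein kinase C, also singled out afterwards, went the other way, averaging 460 CPM on day 0, 266 on day 1 and 228 on day 2, and standing at 272 and 252 CPM on day 4, against 186, 169 and 157 CPM on day 3, with a log2 fold change of 0.62 (SE 0.11, adjusted p = 0.0110).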

How the data were processed

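The deposited RNA table holds whole-number counts per gene, and these counts were the input to every test; the submitters' processing notes name build mm10 and the tools edgeR, HTSeq, Picard and STAR (version not given in the sources used). The authors' normalized values, used in 1 alternative, are on a log2 scale, and the deposited covariate table gives a score per library for each principal component of sequencing metrics. Gene positions are the deposited annotation's, and the chromatin files were not used here. Counting did not use strand as far as stated, so antisense and overlapping genes cannot be told apart.

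All 13 libraries entered 1 fit with day as its term (edgeR 4.0.16 in R 4.3.3, quasi-likelihood F test, two-sided, TMM, filterByExpr, which left 13737 of 13752 genes), with Benjamini-Hochberg adjustment over all of them and a threshold of 0.05. The standard error is the log2 fold change over the square root of F. Exact permutation of 2 against 3 libraries cannot go below p = 0.1. A floor of 3 counts per library, covering counting error only, stood in for groups at 0. Named genes are the 15 largest rises and 15 largest falls with a mean of at least 5 CPM and no overlap, at most 4 passing members of each list, taken by adjusted p, and 16 fixed genes. The members, the 41 gene lists and the tests were chosen with earlier results of these data known. On simulated data the test made 2 false calls among 13718 genes. Those data were drawn gene by gene from the fitted spread, without differences shared across the genes of a library. The number therefore does not measure false calls from such differences. Alternatives used the Wald test and the size factors of DESeq2 1.42.0, limma 3.58.1, scaling by library size, a filter at a mean count of 20 or none, days 3 and 4 alone, replicate number or 2 components as terms, a 2-fold minimum, and each library left out.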

Additional observations from a re-analysis of the deposited data

How the results depend on the processing

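The count of 239 calls (121 higher, 118 lower) was 623 (260 higher, 363 lower) with DESeq2's Wald test and 656 (401 higher, 255 lower, 61.1% higher against 50.6%) in the fit of days 3 and 4 alone. With 2 sequencing components as terms it was 273, split 211 to 62 (77.3% higher), with 119 calls shared. Requiring 2-fold left 82 (72 higher, 10 lower). DESeq2's size factors gave 233, library size 268, no filter 240, the mean count filter 239 and limma 260. Leaving out 1 library gave 1 to 106 calls, 0 to 52 higher and 1 to 62 lower. All 239 genes kept their direction under each alternative that gave them a value.

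With the replicate number as a block there were 242 calls (141 higher, 101 lower), 188 shared. The numbers were not taken to pair libraries, because the labels do not say that a number marks a shared animal, litter or day. Deviations of same-numbered libraries correlated at 0.06 for replicate 2 and -0.0023 for replicate 3. The deviations of the 2 day 4 libraries mirror each other, so these correlations cannot decide whether libraries were paired.

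Among named genes that did not pass, the log2 fold change changed sign for Ecel1 (-0.11) and Pou4f1 (0.075) with components, Jun with the block (-0.068), and gene Sncg with library size only (0.0080), days 3 and 4 alone (0.0052) and limma (0.0067). Without 1 library it ranged from -0.023 to 0.071 for Jun, from -0.087 to 0.075 for Pou4f1, from -0.10 to 0.059 for Sncg and from -0.19 to 0.035 for Thy1. The cause was not tested. With 2 against 3 libraries, changes near 1.5-fold were mostly not detectable.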

Other observations

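Genes below the level set for naming held further immune rises, given here after their values were seen. Of the 121 genes higher on day 4, 39 averaged under 5 CPM over the 5 libraries, as did 3 of the 118 lower. Of the 13737 genes tested, 10199 averaged at least 5 CPM and the rest less, so low levels were not particular to the rises. The cytokine gene Il1b stood at 5.64 and 8.81 CPM on day 4, against 0.0419, 1.13 and 0.501 CPM on day 3, with a log2 fold change of 3.69 (SE 0.79, adjusted p = 0.0268), or 4.70 without day 3 replicate 2. The chemokine gene Ccl2 stood at 6.24 and 10.1 CPM on day 4, against 0.587, 0.349 and 1.09 CPM on day 3, with a log2 fold change of 3.58 (SE 0.56, adjusted p = 0.00683). Against a floor of 3 counts per day 3 library, where they had no count, Oas2 was at least 14.6-fold higher on day 4 (9.10-fold without day 4 replicate 3), Pla2g4a at least 7.78-fold, Cd2 at least 5.94-fold and Fgd3 at least 3.92-fold. 4932435O22Rik had no count in either day 4 library and was at least 6.75-fold lower against the same floor, a bound that was 2.73-fold without day 3 replicate 3.

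A further 3 rises were singled out after their values were seen. Dcx, which encodes doublecortin, a microtubule protein of young neurons, stood at 73.1 and 76.1 CPM on day 4, against 35.1, 53.2 and 36.4 CPM on day 3, with a log2 fold change of 0.84 (SE 0.16, adjusted p = 0.0131). Flna, which encodes the actin crosslinker filamin A, stood at 65.7 and 65.8 CPM on day 4, against 32.0, 43.1 and 38.7 CPM on day 3, with a log2 fold change of 0.79 (SE 0.19, adjusted p = 0.0457). Zfp36, which encodes a protein that speeds the decay of cytokine messages, stood at 56.3 and 82.7 CPM on day 4, against 33.0, 13.8 and 21.8 CPM on day 3, with a log2 fold change of 1.60 (SE 0.37, adjusted p = 0.0388).

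The median genomic span was 31.6 kb for genes higher on day 4, 30.4 kb for genes lower and 24.9 kb for all genes tested.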
